A study of Mus musculus with 9 samples.

Results

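The genes described here are 10 transcription factors of the midbrain dopamine lineage: Pitx3, Nr4a2, En1, Lmx1a, Lmx1b, Foxa1, Foxa2, Ebf1, Ebf2 and Ebf3. They were chosen by name, with earlier results of these data known, and all 10 were found among the 32695 genes of the count table. The mice carried VGAT-Cre, Ai14 and Pitx3-GFP, and single cells dissected from their ventral midbrain had been sorted into 9 plates for SORT-seq, a plate form of CEL-seq2. In these mice Cre is driven by the gene of the vesicular GABA transporter VGAT and switches on tdTomato (tdT), which then stays on, so tdT marks cells that have used this gene at any time. GFP is driven by the Pitx3 gene. Sorting on tdT alone gave the VGAT plates, 4 at E16 (late embryo) and 3 at P0 (newborn), and sorting on tdT with GFP gave 1 VGAT+PITX3 plate at each stage. All cells came from animals of this reporter line without further treatment, sex is not given, and several brains and litters were pooled without being tied to a plate, so p-values measure only the spread between plates.

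These factors act in sequence. Foxa1 and Foxa2, forkhead factors of the floor plate, and Lmx1a and Lmx1b, LIM homeodomain factors, specify dopamine progenitors, and En1, a homeodomain factor of the midbrain and anterior hindbrain, supports the survival of the neurons. Nr4a2, an orphan nuclear receptor also called Nurr1, and Pitx3, a homeodomain factor, act in the postmitotic neuron on genes of dopamine synthesis and transport. Ebf1, Ebf2 and Ebf3 are related helix-loop-helix factors expressed as neurons leave the cell cycle and migrate, and they are used by many kinds of neuron. Several of the 10 are also used by GABA neurons that lie next to the dopamine neurons.

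Of 3455 wells, 2035 were kept, 575 on the VGAT+PITX3 plates and 1460 on the VGAT plates, with 44 to 305 kept wells and 1435919 to 5408710 counts per plate. The plate with 44 wells was VGAT P0 replicate 1. A level of 3 counts corresponds to 0.561 to 2.02 CPM (counts scaled to a common effective library size), and counting intervals and floors cover counting error only. The cell names carry a second plate label, whose stage differs from the title on 4 VGAT plates (E16 replicates 3 and 4, P0 replicates 1 and 3), and the stage in the sample titles was used. Against the labelled GABA identity, Gad1, the main GABA-synthesising enzyme, had a count in 1.00% and 1.20% of thinned wells of the VGAT+PITX3 plates and in 90.7% to 95.2% on the VGAT plates, whereas Gad2, the second enzyme, had one in 60.5% and 66.3% and Slc32a1, the gene of VGAT itself, in 47.5% and 52.2% of wells of the VGAT+PITX3 plates. Thinning here means drawing each well down to 4000 counts, since a deeper well shows more genes.

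In GRCm38 the genes lie at chr19:46135685-46148326 (Pitx3), chr2:57106830-57124003 (Nr4a2), chr1:120602418-120607992 (En1), chr1:167689237-167848741 (Lmx1a), chr2:33560965-33640511 (Lmx1b), chr12:57540628-57546916 (Foxa1), chr2:148042877-148046969 (Foxa2), chr11:44617317-45008091 (Ebf1), chr14:67233292-67430918 (Ebf2) and chr7:137193673-137314445 (Ebf3). The stretches before the start sites of 4 of them are shown, 1 for each kind of factor whose level differed widely between the sorts: the homeodomain factor, the nuclear receptor, the forkhead factor and the EBF factor. RefSeq promoters (GRCm38.p6) were found for 9 of the 10 genes, with 12 start sites, and not for Ebf2. Each line gives the 250 bases before the start, 5′ to 3′ on the strand of the gene, with matches to the searched motifs in capitals.
Pitx3 (chr19:46148326-46148575, minus strand): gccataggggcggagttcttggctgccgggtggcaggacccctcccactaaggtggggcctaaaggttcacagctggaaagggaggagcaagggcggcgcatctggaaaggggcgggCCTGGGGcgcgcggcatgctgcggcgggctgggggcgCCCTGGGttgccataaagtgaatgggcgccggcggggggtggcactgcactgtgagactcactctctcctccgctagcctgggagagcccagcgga
Nr4a2 (chr2:57124004-57124253, minus strand): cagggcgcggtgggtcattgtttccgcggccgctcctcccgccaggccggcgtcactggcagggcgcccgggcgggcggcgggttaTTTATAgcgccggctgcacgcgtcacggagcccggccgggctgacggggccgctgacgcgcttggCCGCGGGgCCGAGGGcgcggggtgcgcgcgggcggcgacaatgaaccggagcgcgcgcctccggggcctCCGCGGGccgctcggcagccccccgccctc
Foxa1 (chr12:57546112-57546361, minus strand): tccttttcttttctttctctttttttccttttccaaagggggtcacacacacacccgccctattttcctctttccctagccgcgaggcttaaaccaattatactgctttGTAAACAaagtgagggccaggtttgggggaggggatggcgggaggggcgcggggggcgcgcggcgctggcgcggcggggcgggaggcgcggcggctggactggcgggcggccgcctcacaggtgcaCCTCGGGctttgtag
Ebf3 (chr7:137314446-137314695, minus strand): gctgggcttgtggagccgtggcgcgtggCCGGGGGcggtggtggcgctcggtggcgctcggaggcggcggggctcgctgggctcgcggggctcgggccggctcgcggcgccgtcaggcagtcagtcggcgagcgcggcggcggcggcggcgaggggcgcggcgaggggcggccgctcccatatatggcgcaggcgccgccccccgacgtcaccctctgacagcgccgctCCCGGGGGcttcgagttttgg

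Searched on both strands were a forkhead motif TGTTTAC (in 3.17% of 32851 promoters of this length), a bicoid motif TAATCC (6.25%), a homeobox motif TAATTA (4.84%), a nuclear receptor half-site AAGGTCA (4.08%), an EBF motif CCCNNGG (45.0%) and a TATA box TATAAA (12.4%). Among these stretches, the forkhead letters lay in that of Foxa1 only, 141 bases before its start. The loose EBF letters lay in 7 of the 12 stretches, those of Pitx3, Nr4a2, Lmx1a, Foxa1 and Ebf3 and 1 start site each of Foxa2 and Ebf1, and not in those of En1 and Lmx1b. TATA letters lay in that of Nr4a2 and at 1 start site of Foxa2, and the bicoid, homeobox and nuclear receptor letters lay in none of the 12. A match describes letters and is not a binding site.

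**Figure D1:**
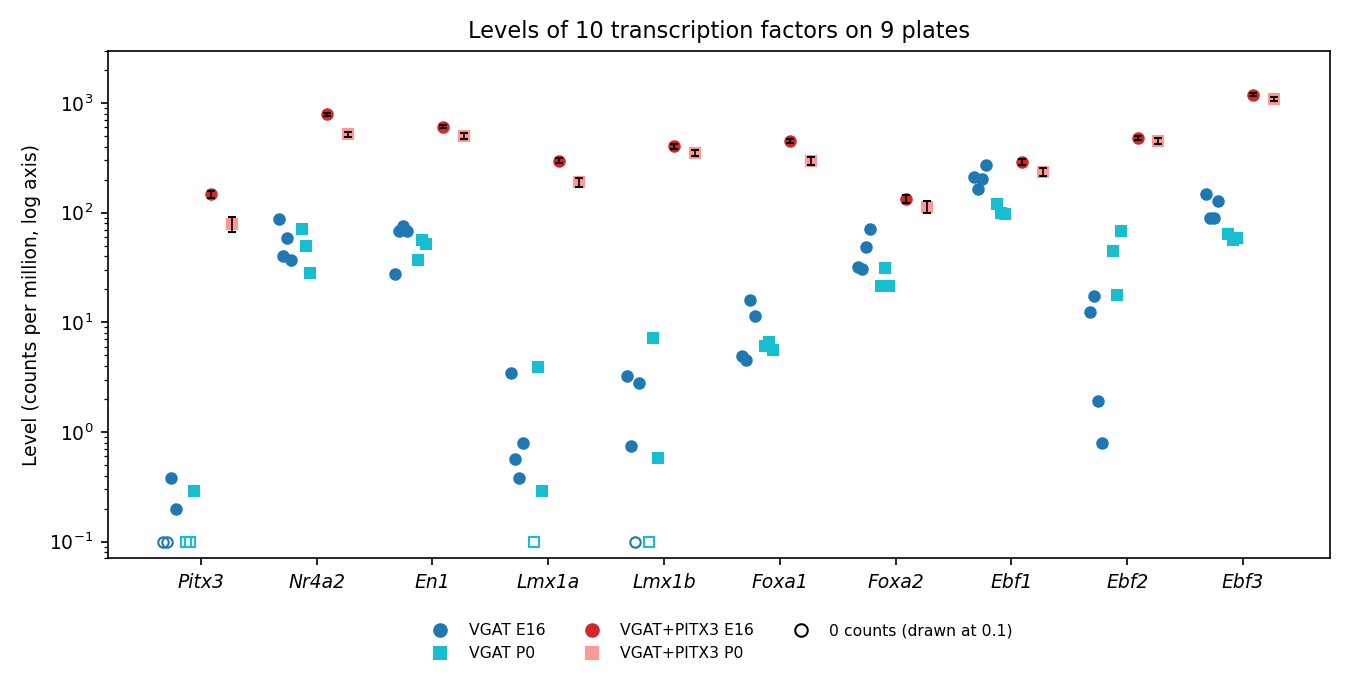
Level of each factor on each plate in CPM on a log axis, with VGAT plates in blue (E16, circles) and cyan (P0, squares) and VGAT+PITX3 plates in red (E16) and pink (P0). Bars on the VGAT+PITX3 points are 95% Poisson intervals of the counts and open symbols, drawn at 0.1, mark 0 counts. Both VGAT+PITX3 points lie above all VGAT points for 9 of the 10 factors, and the exception is Ebf1.

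To ask how the factors differ between the 2 sorts, counts were summed per plate and the VGAT+PITX3 plates were compared with the VGAT plates, with stage as a covariate. Pitx3 is set by the gate, and Pitx3 and Lmx1a passed the filter on low counts only through the VGAT+PITX3 plates, so these 2 are given by their levels with no test. The other 8 could be tested on the VGAT plates alone too, and all 8 were higher in the VGAT+PITX3 sort with edgeR's quasi-likelihood test, against 4.73% of all 14624 genes tested that were higher, 4.20% that were lower and 8.93% in either direction. Both VGAT+PITX3 plates lay above all 7 VGAT plates for 7 of these 8, all but Ebf1, against 7.86% of all genes. In bulk sums of wells, more cells with a transcript and more transcript per cell cannot be told apart, so shares of wells are given below. The summed level of 5 dopamine neuron markers was 4339 and 3457 CPM on the VGAT+PITX3 plates and 23.4 to 54.0 CPM on the VGAT plates. That of the 3 glutamate neuron markers was 103.7 and 201 CPM against 1.85 to 23.95 CPM. The summed level of 5 markers of astrocytes and radial glia was 143 and 132 CPM on the VGAT+PITX3 plates, 357 CPM on VGAT P0 replicate 2 and 3.25 to 10.6 CPM on the other 6 VGAT plates. That of 4 oligodendrocyte lineage markers was 22.8 and 31.3 CPM, 47.3 CPM on VGAT P0 replicate 2 and 0 to 10.4 CPM on the other 6. Of the astrocyte markers, Gfap was at 0 on 7 of the 9 plates, and the part of these cell types in the result was not tested.

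Pitx3, the gene the GFP gate reads, served to check the sort. It had 652 counts (147 CPM) on the E16 and 174 counts (78.0 CPM) on the P0 VGAT+PITX3 plate. On the VGAT plates it had 0, 0, 2 and 1 counts at E16 and 0, 0 and 1 at P0, each in a well of its own. The sorts as labelled therefore did not overlap in Pitx3. After thinning, a Pitx3 count was found in 38.8% and 24.5% of VGAT+PITX3 wells, so most wells sorted by GFP showed none at this depth. Pitx3 shares its locus on the opposite strand with Elovl3, which had 20 counts on all plates together.

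Nr4a2 stood at 787 and 519 CPM on the E16 and P0 VGAT+PITX3 plates. On the VGAT plates it had 88.4, 40.6, 58.2 and 37.1 CPM at E16 and 70.6, 50.0 and 28.0 CPM at P0. The lower VGAT+PITX3 plate was 5.87 times as high as the highest VGAT plate, and the log2 fold change was 3.65 (SE 0.26, edgeR adjusted p = 2.57e-07). The sorts also differed in how the counts were spread over wells. Nr4a2 was found in 94.0% and 84.7% of thinned VGAT+PITX3 wells and in 3.07% to 7.10% on the VGAT plates. There the 10 wells with most counts held 78.9% to 99.0% of them, with up to 63 counts in 1 well, whereas on the VGAT+PITX3 plates the top 10 held 9.33% and 11.2%.

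Lmx1a and Lmx1b were near the floor on the VGAT plates. Lmx1a stood at 297 and 190 CPM on the VGAT+PITX3 plates and at 3.45, 0.561, 0.380 and 0.793 CPM on the E16 and 0, 3.89 and 0.292 CPM on the P0 VGAT plates. Lmx1b stood at 402 and 350 CPM against 3.20, 0.748, 0 and 2.78 CPM at E16 and 0, 7.22 and 0.584 CPM at P0. These VGAT levels come from 0 to 14 counts per plate and mostly lie near the floor of 3 counts. The log2 fold change of Lmx1b was 7.71 (SE 0.40, edgeR adjusted p = 6.54e-09). After thinning, Lmx1a was found in 60.9% and 50.2% and Lmx1b in 76.6% and 71.1% of VGAT+PITX3 wells. Single wells weighed heavily on the VGAT plates, where 1 well held 11 of the 14 Lmx1a counts of E16 replicate 1.

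En1 was lower on every VGAT plate than on the VGAT+PITX3 plates but was not rare there. It had 611 and 501 CPM on the VGAT+PITX3 plates, 27.8, 67.9, 75.7 and 68.0 CPM on the E16 and 37.0, 56.7 and 51.4 CPM on the P0 VGAT plates. The log2 fold change was 3.35 (SE 0.22, edgeR adjusted p = 1.26e-07). En1 was found in 9.29% to 16.8% of thinned VGAT wells and in 78.6% and 74.7% of VGAT+PITX3 wells.

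The forkhead pair differed between its members. Foxa1 had 451 and 296 CPM on the VGAT+PITX3 plates and 4.93, 4.49, 15.97 and 11.3 CPM on the E16 and 6.05, 6.67 and 5.55 CPM on the P0 VGAT plates, a log2 fold change of 5.60 (SE 0.26, edgeR adjusted p = 2.25e-09). Foxa2 had 133 and 113 CPM against 32.0, 30.5, 48.1 and 71.6 CPM at E16 and 21.5, 31.1 and 21.6 CPM at P0, a log2 fold change of 1.84 (SE 0.26, adjusted p = 0.000184). For Foxa2 the lower VGAT+PITX3 plate was 1.59 times as high as the highest VGAT plate, and for Foxa1 18.5 times. In thinned wells Foxa1 was found in 1.18% to 3.69% of VGAT wells and Foxa2 in 4.73% to 17.1%.

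Among the EBF factors, the sorts did not overlap in Ebf3 and Ebf2 and overlapped in Ebf1. Ebf3 had 1197 and 1084 CPM on the VGAT+PITX3 plates and 147, 89.0, 90.3 and 128 CPM on the E16 and 63.2, 56.1 and 59.3 CPM on the P0 VGAT plates (log2 fold change 3.79, SE 0.18, edgeR adjusted p = 3.16e-09). Ebf2 had 483 and 449 CPM against 12.3, 17.2, 1.90 and 0.793 CPM at E16 and 45.1, 17.8 and 67.5 CPM at P0 (4.83, SE 0.56, adjusted p = 3.36e-05). The VGAT plates thus spanned 0.793 to 67.5 CPM in Ebf2, from 4 to 231 counts. Ebf1 had 290 and 234 CPM on the VGAT+PITX3 plates and 210, 165, 202 and 269 CPM on the E16 and 119, 99.4 and 97.8 CPM on the P0 VGAT plates. The P0 VGAT+PITX3 plate lay within the range of the E16 VGAT plates, while within each stage the VGAT+PITX3 plate lay above all VGAT plates. The Ebf1 log2 fold change of 0.80 (SE 0.18, adjusted p = 0.00978) was no longer called without the P0 VGAT+PITX3 plate (0.45, adjusted p = 0.373) with the stage from the second plate label (0.66, adjusted p = 0.362) or with spliced counts alone (0.49, adjusted p = 0.127). Antisense transcripts annotated within Ebf1, Ebf2 and Ebf3 had at most 41 counts each on all plates together, and the strand of the counting is not stated.

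To see whether the factors occurred in the same cells, the number of the 10 found in each thinned well was counted. VGAT+PITX3 wells held a mean of 6.35 factors (SD over wells 1.44, 299 wells, range 2 to 10) at E16 and 5.66 (SD 1.41, range 1 to 9) at P0. On the 7 VGAT plates the means were 0.588 to 0.771, and 51.4% to 59.8% of the wells had none. At least 5 of the 10 were found in 91.0% and 79.5% of the VGAT+PITX3 wells. Only 1 thinned well of the VGAT plates reached 5, on E16 replicate 2. The 10 include Pitx3, which is set by the gate, and Lmx1a, which was near the floor on the VGAT plates. The gap between the sorts was thus partly fixed by the sort, and no count without these genes is given. The part of free RNA in these counts was not tested. Wells with fewer than 500 genes, which were left out, held the factors at 5015 and 4706 CPM on the VGAT+PITX3 plates against 4595 and 3636 CPM in the kept wells, and at 341 to 850 CPM on the VGAT plates against 330 to 582 CPM.

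**Figure D2:**
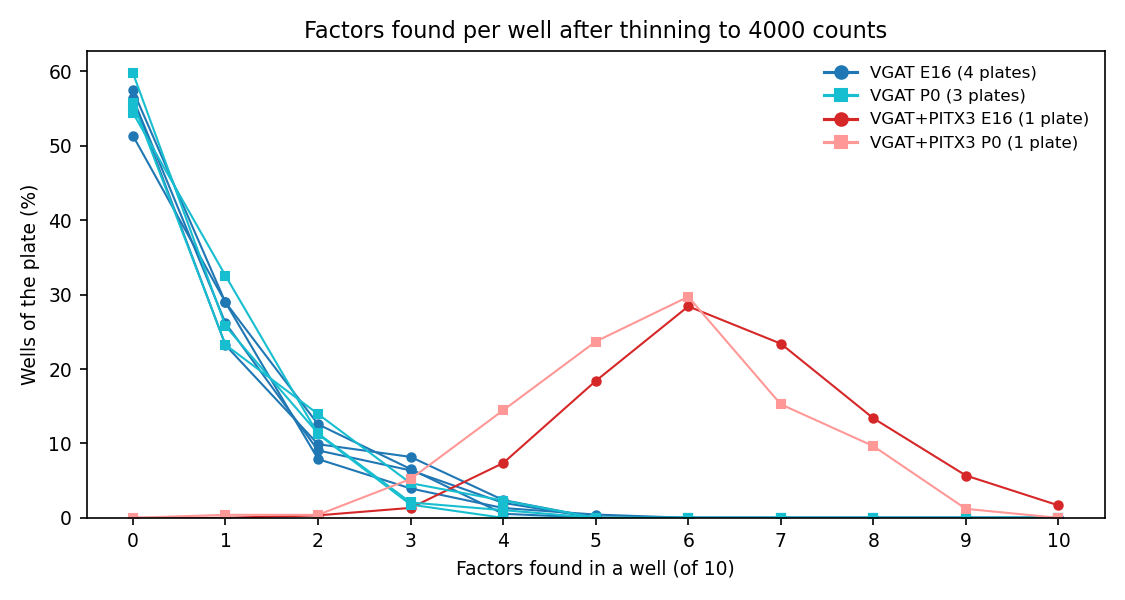
Percent of the thinned wells of each plate (vertical axis) that held a given number of the 10 factors (horizontal axis), 1 line per plate. The 7 VGAT lines fall from 51.4% to 59.8% of wells at 0 factors, and both VGAT+PITX3 lines have their median at 6 factors.

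The next count covers all depths and only the 7 factors other than the EBF genes, with Pitx3 and Lmx1a among them. In it 300 of 304 E16 and 236 of 271 P0 VGAT+PITX3 wells held at least 4. Among the 1460 wells of the VGAT plates 3 did. The first, on E16 replicate 1, had 31 Nr4a2, 11 Lmx1a and 10 Lmx1b counts with 45 Gad1 and 12 Gata3 counts (Gata3 is a selector gene of midbrain GABA neurons) and no Th, Slc6a3 or Pitx3 count. The second, on E16 replicate 2, had 1 or 2 counts each of En1, Lmx1b, Foxa1 and Foxa2 with 12 Ebf1 counts. The third, on P0 replicate 2, had 12 Nr4a2, 4 Lmx1a and 16 Ebf3 counts, with 5 Slc32a1 and 3 Gata3 counts and no Gad1 count. None of the 3 held a count of Th, the rate-limiting enzyme of dopamine synthesis. The 4 VGAT wells with a Pitx3 count held 2 or 3 of the 10 factors, and none held Nr4a2, Lmx1a or Lmx1b.

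Within the VGAT+PITX3 plates, wells were then divided by Slc6a3, the dopamine transporter of mature dopamine neurons. At E16, 129 wells had 3 or more Slc6a3 counts and 175 had fewer, and at P0 these were 92 and 179. Next to the limit, 9 wells had exactly 3 and 12 exactly 2 counts at E16, and 6 and 9 did at P0. Wells with 3 or more were deeper, with a median of 17815 against 13542 counts at E16 and 9298 against 7467 at P0. Sums of both kinds of well were compared with the plate as a block. This left 1 residual degree of freedom, and the plates are also the stages, so the test rests on the spread shared across genes.

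Pitx3 and En1 were higher and Ebf2, Ebf3, Ebf1 and Foxa2 lower in the wells with 3 or more Slc6a3 counts, that is 2 of the 10 against 4.93% of 11752 genes tested that were higher and 4 against 6.28% that were lower (11.2% in either direction). Ebf2 had 71.0 against 858 CPM at E16 and 61.9 against 663 CPM at P0, a log2 fold change of -3.53 (SE 0.15, edgeR adjusted p = 2.75e-18). Ebf3 had 499 against 1807 CPM and 440 against 1424 CPM (-1.78, SE 0.13, adjusted p = 8.69e-13). Both were lower in the Slc6a3 wells of both plates, the only 2 of the 10 called under every alternative. Ebf1 had 123 against 435 CPM at E16 but 204 against 241 CPM at P0 (-1.10, SE 0.20, adjusted p = 7.32e-05). Foxa2 had 95.4 against 162 CPM and 91.7 against 121 CPM (-0.62, SE 0.15, adjusted p = 0.0041). Pitx3 moved the other way, with 202 against 85.0 CPM and 115 against 51.8 CPM (1.21, SE 0.15, adjusted p = 1.88e-07), as did En1 with 735 against 452 CPM and 597 against 418 CPM (0.61, SE 0.12, adjusted p = 0.000509). Lmx1a (-0.39, adjusted p = 0.0657), Nr4a2 (0.19, adjusted p = 0.443), Foxa1 (0.13, adjusted p = 0.641) and Lmx1b (0.07, adjusted p = 0.848) did not pass. DESeq2 called 3 of the 10 (Pitx3, Ebf2 and Ebf3), a fit without the plate block 2 (Ebf2 and Ebf3), and sums of thinned wells 4 (Pitx3, Ebf1, Ebf2 and Ebf3).

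Other genes moved with the same division. Gad2 was at 56.8 against 1738 CPM at E16 and 115 against 1561 CPM at P0, and Slc17a6, the vesicular glutamate transporter of midbrain neurons, at 12.0 against 192 CPM and 47.0 against 293 CPM. Th was at 1026 against 81.5 CPM and 989 against 135 CPM, and Aldh1a1, an aldehyde dehydrogenase of ventral nigral dopamine neurons, at 4158 against 134 CPM and 4075 against 223 CPM. The 5 markers of astrocytes and radial glia, led by Fabp7, summed to 50.2 against 234 CPM at E16 and 165 against 113 CPM at P0, with Gfap at 0 in 3 of the 4 sums. The 4 oligodendrocyte lineage markers summed to 2.63 against 42.6 CPM at E16 and 31.6 against 31.1 CPM at P0, and the 3 endothelial markers to 0 against 12.5 CPM and 3.38 against 1.38 CPM. The part of these cell types in the result was not tested.

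**Figure D3:**
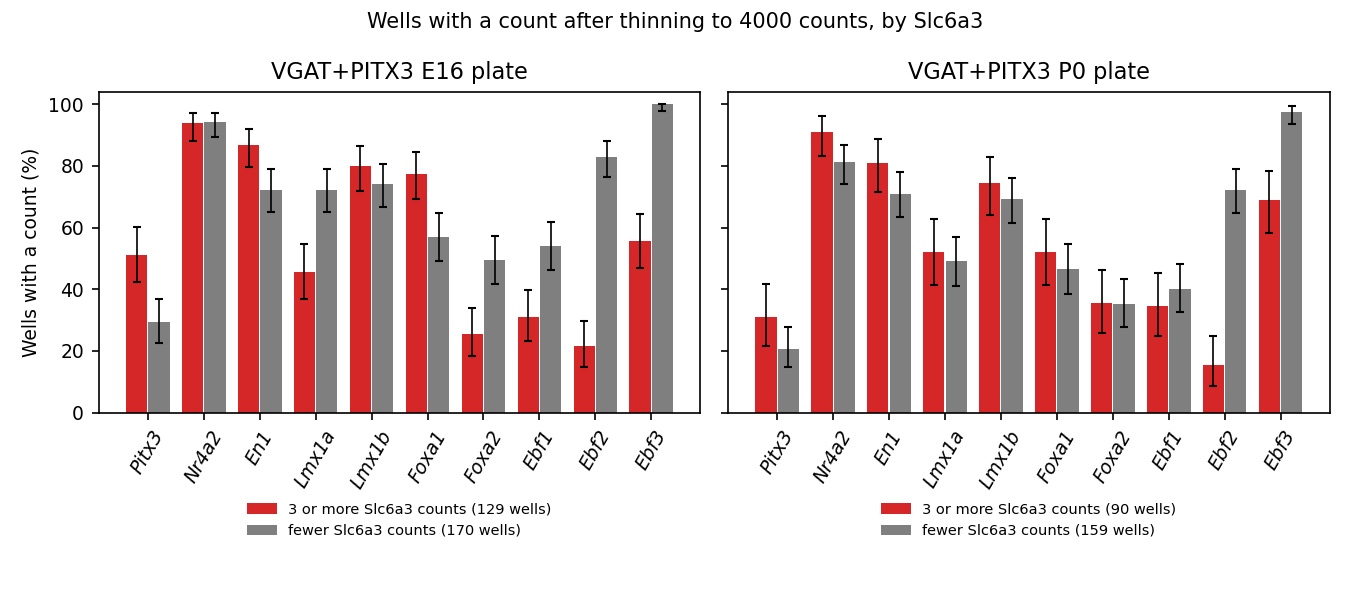
Percent of thinned VGAT+PITX3 wells with a count of each factor, in wells with 3 or more Slc6a3 counts (red) and fewer (grey), at E16 (left) and P0 (right). Bars show exact 95% binomial intervals over wells of 1 plate. Ebf2 was found in 21.7% against 82.9% of wells at E16, and Nr4a2 in 93.8% against 94.1%.

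In thinned wells the same division was seen as shares. Ebf3 was found in all 170 wells with fewer Slc6a3 counts at E16 (exact Clopper-Pearson interval 97.9% to 100%) and in 55.8% (46.8% to 64.5%) of the wells with 3 or more, and at P0 in 97.5% and 68.9%. Ebf2 was found in 82.9% against 21.7% at E16 and in 72.3% against 15.6% at P0. Pitx3 was found in 29.4% against 51.2% and 20.8% against 31.1%. Foxa2 and Lmx1a showed such a gap at E16 (49.4% against 25.6%, and 72.4% against 45.7%) but not at P0, where they were at 35.2% against 35.6% and 49.1% against 52.2%. Ebf1 was found in 54.1% against 31.0% at E16 and in 40.3% against 34.4% at P0. Foxa1, whose summed level did not pass, was found in 57.1% against 77.5% at E16 and in 46.5% against 52.2% at P0. The wells with fewer Slc6a3 counts held more of the 10 factors, with a mean of 6.86 against 5.69 at E16 and 5.83 against 5.37 at P0. This did not hold for each factor. Ebf1, Ebf2 and Ebf3 were found in a larger share of these wells at both stages, and Pitx3, En1, Lmx1b and Foxa1 in a smaller one.

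**Figure D4:**
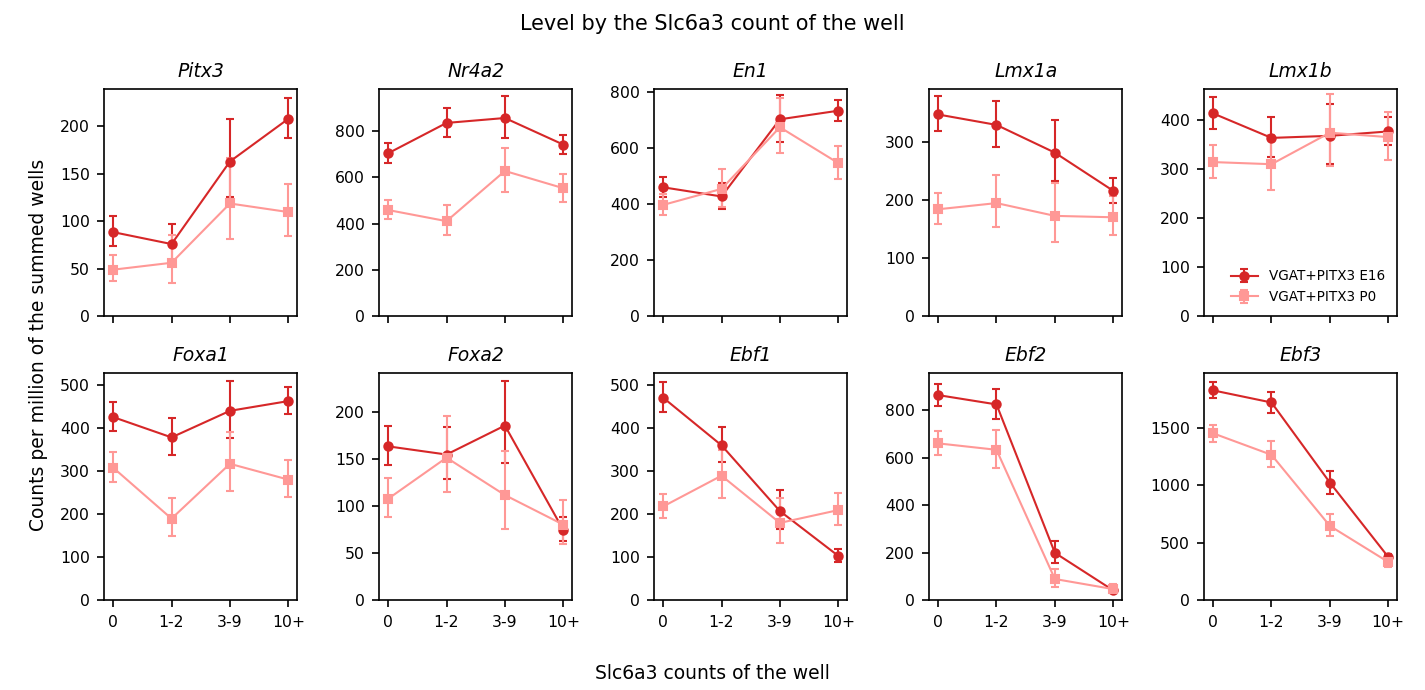
Level of each factor in CPM of summed VGAT+PITX3 wells (vertical axes start at 0), by the Slc6a3 count of the wells, at E16 (red) and P0 (pink), with 95% Poisson intervals. Ebf2 at E16 goes from 863 CPM in wells without Slc6a3 to 42.1 CPM in wells with 10 or more, and Pitx3 from 88.7 to 208 CPM.

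By the number of Slc6a3 counts, Ebf2 at E16 was at 863, 824, 200 and 42.1 CPM in wells with 0, 1 to 2, 3 to 9, and 10 or more counts, and at P0 at 660, 633, 90.0 and 47.5 CPM. Ebf3 was at 1827, 1722, 1025 and 378 CPM at E16 and at 1454, 1266, 648 and 334 CPM at P0. Both were thus lowest in the wells with most Slc6a3. Pitx3 was at 88.7, 76.1, 163 and 208 CPM at E16 and at 49.1, 56.4, 119 and 110 CPM at P0, and the intervals of the last 2 groups overlap at both stages. Nr4a2 had no such order at E16, with 703, 833, 855 and 740 CPM. At P0 it had 458, 410, 626 and 552 CPM, higher in both groups of wells with 3 or more counts, where it was found in 91.1% of thinned wells against 81.1%. At P0 the intervals of wells with 0 and with 10 or more counts overlap, and Nr4a2 was not called in the Slc6a3 division. Co-detection within the E16 plate followed the same lines: 97.0% of wells with Ebf2 also had Ebf3, against 60% of wells without Ebf2, and 71.6% against 87.7% had En1.

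The factors on the VGAT plates were then set against 8 genes that the authors use to mark regional GABA populations among these same cells. Wells with at least 1 count of such a gene were summed per plate and compared with the wells of the plate that had none, with plate as a block. Of 58 pairs of a factor and a marker gene that could be tested, 8 were higher and 12 lower, while 0.633% to 4.64% of all genes were called in either direction in the 8 fits. That split was 8 and 22 of 51 where a well needed at least 2 counts of the marker gene, 12 and 28 of 80 with no filter on low counts, 8 and 8 with DESeq2 and 7 and 4 of 52 without the plate block. Pitx3 was too low to test in any of them. Wells with a count had the higher median depth on all 7 plates for Six3, Nkx2-2 and Tac1, on 6 for Pax5 and on 3 for Otx2, and the part of depth and of free RNA was not tested.

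**Figure D5:**
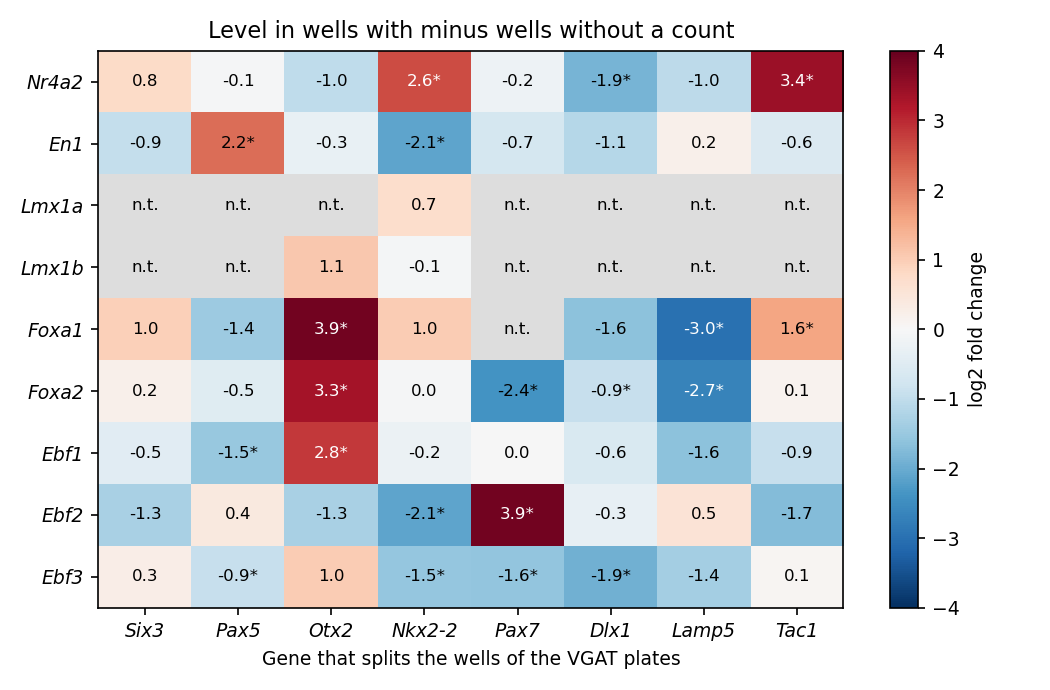
log2 fold change of 9 factors between VGAT wells with and without a count of the gene on the horizontal axis, with an asterisk where edgeR's adjusted p was under the threshold and n.t. where the pair was not tested. The Otx2 column holds the values 3.86 for Foxa1, 3.34 for Foxa2 and 2.81 for Ebf1.

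Otx2 is a homeodomain factor of the forebrain and midbrain, used here as a marker of the ventral tegmental area. In the ventral midbrain the authors also place it in the reticular formation and the caudal interpeduncular nucleus. Wells with Otx2 were higher in Foxa1, Foxa2 and Ebf1. These were 3 of 8 factors tested, where 2.61% of all genes were higher, 2.03% lower and 4.64% either. Foxa2 had 75.4, 102, 167 and 182 CPM in the E16 wells with Otx2 and 9.25, 3.65, 7.79 and 27.1 CPM in the wells without. At P0 it had 54.4, 97.6 and 58.9 CPM against 4.29, 13.7 and 12.6 CPM, so that it was higher with Otx2 on all 7 plates (log2 fold change 3.34, SE 0.22, edgeR adjusted p = 3.44e-08). Ebf1 had 381, 358, 689 and 873 CPM against 122, 94.1, 37.1 and 22.8 CPM at E16 and 212, 290 and 284 CPM against 71.9, 49.8 and 52.6 CPM at P0 (2.81, SE 0.34, adjusted p = 3.69e-05). Foxa1 had 9.96, 14.4, 56.3 and 36.1 CPM against 2.31, 0.782, 2.34 and 1.15 CPM at E16 and 17.5, 7.91 and 26.5 CPM against 0, 6.49 and 0.370 CPM at P0 (3.86, SE 0.43, adjusted p = 1.63e-05). Wells with Otx2 were 21.0% to 32.1% of a plate and held 54.1% to 91.4% of its Foxa2 counts. These 3 calls were kept under all 16 alternatives. Foxa2 and Ebf1 also met in single wells: of thinned VGAT wells with Foxa2, 37.5% to 90.9% had Ebf1, against 9.2% to 16.3% of those without.

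Wells with Nkx2-2 or Tac1, used as markers of the midbrain reticular formation, were higher in Nr4a2. In the authors' clustering of these same cells, a reticular formation cluster is marked by Nr4a2 and Tac1, among clusters marked by Nkx2-2. The pairings of Nr4a2 with both genes were thus known from these data beforehand. Nkx2-2 is a homeodomain factor of the ventral neural tube and Tac1 encodes the neuropeptide substance P. Nr4a2 had 128, 136, 372 and 297 CPM in the E16 wells with Tac1 against 82.2, 12.7, 18.6 and 3.42 CPM in those without, and 183, 237 and 92.5 CPM against 15.8, 13.2 and 12.6 CPM at P0. Its log2 fold change was 3.41 (SE 0.40, edgeR adjusted p = 0.000227), where 0.316% of all genes were higher, 0.316% lower and 0.633% either. The wells with Tac1 held 71.8% to 91.9% of the Nr4a2 counts on 5 plates, 64.6% on P0 replicate 3 and 22.1% on E16 replicate 1. For Nkx2-2 the log2 fold change of Nr4a2 was 2.61 (SE 0.29, adjusted p = 6.46e-05), where 1.22% of genes were higher, 2.02% lower and 3.24% either. En1 (-2.12, SE 0.27, adjusted p = 0.000208), Ebf3 (-1.55, SE 0.13, adjusted p = 5.85e-06) and Ebf2 (-2.12, SE 0.44, adjusted p = 0.0123) were lower with Nkx2-2, although Ebf2 was higher with it on P0 replicate 1 (50.5 against 41.7 CPM). The Ebf2 call was lost without E16 replicate 2 (adjusted p = 0.062), without P0 replicate 3 (0.0745) and without the plate block (0.603). Foxa1 passed with Tac1 (1.57, adjusted p = 0.0485), was higher on all plates but P0 replicate 3 and was lost under 10 of 15 alternatives, among them without any 1 plate other than P0 replicate 3 (adjusted p = 0.0624 to 0.276).

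Wells with Pax5, a paired box factor used as a marker of the substantia nigra pars reticulata, were higher in En1, where 1.66% of all genes were higher, 1.26% lower and 2.92% either. En1 had 119, 138, 159 and 161 CPM with Pax5 against 12.5, 33.9, 13.5 and 23.9 CPM without at E16. At P0 it had 36.5, 95.1 and 117 CPM against 38.1, 44.6 and 41.8 CPM, so that P0 replicate 1 did not show the difference (log2 fold change 2.23, SE 0.25, edgeR adjusted p = 2.93e-05). Ebf1 was lower with Pax5 on all 7 plates (-1.50, SE 0.19, adjusted p = 0.000107), and Ebf3 too (-0.92, SE 0.20, adjusted p = 0.012), which was lost without E16 replicate 3 (adjusted p = 0.083). Without the plate block both were lost (0.0739 and 0.662). With Six3, the other marker of that region, none of 7 factors tested passed with edgeR, where 0.440% of all genes were higher, 0.324% lower and 0.764% either, and 4 had an unadjusted p under 0.05, as did 8.64% of all genes.

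Ebf2 on the VGAT plates went with Pax7, a paired box factor used as a marker of the interpeduncular nucleus. Only 4 plates had 5 or more wells with Pax7. On these, Ebf2 had 19.4, 162, 224 and 303 CPM with and 12.3, 8.22, 3.14 and 19.1 CPM without Pax7 (E16 replicates 1 and 2, P0 replicates 2 and 3), a log2 fold change of 3.87 (SE 0.41, edgeR adjusted p = 7.11e-05, where 0.497% of genes were higher and 0.898% either). Foxa2 (-2.40, SE 0.49, adjusted p = 0.0224) and Ebf3 (-1.57, SE 0.33, adjusted p = 0.0291) were lower, where 0.401% of genes were lower. Ebf3 went the other way on P0 replicate 2 (66.4 CPM with and 58.4 CPM without Pax7). Neither was called with DESeq2, and Ebf3 was also lost without the plate block (0.188). With Dlx1, a homeodomain factor of forebrain and hypothalamic GABA neurons (5 plates), Nr4a2 (-1.87), Ebf3 (-1.92) and Foxa2 (-0.93) were lower, where 0.416% of genes were higher, 0.609% lower and 1.02% either. On P0 replicate 2 Ebf3 was higher with Dlx1 (114 against 51.2 CPM). All 3 were lost with DESeq2 and without the plate block, Nr4a2 also without E16 replicate 1 (adjusted p = 0.0625) and Foxa2 without E16 replicate 1, 3 or 4 (0.088 to 0.162). With Lamp5, used as a marker of hindbrain neurons, Foxa1 (-3.00, adjusted p = 0.0241) and Foxa2 (-2.68, adjusted p = 0.00689) were lower, where 0.741% of genes were lower, 0.432% higher and 1.17% either. The Foxa1 call was lost without P0 replicate 1 (adjusted p = 0.0524), and without the plate block Foxa1 could not be tested with Lamp5 or Tac1.

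The stage comparison asked which factors differ between E16 and P0. On these VGAT plates 8 of the 10 could be tested and 3 passed, where 4.58% of 13639 genes did, 2.84% higher and 1.74% lower at P0. Ebf1 fell from 165 to 269 CPM at E16 to 97.8 to 119 CPM at P0 (log2 fold change -0.9996, SE 0.16, edgeR adjusted p = 0.011). Ebf3 fell from 89.0 to 147 CPM to 56.1 to 63.2 CPM (-0.92, SE 0.18, adjusted p = 0.0207), and Ebf2 rose from 0.793 to 17.2 CPM to 17.8 to 67.5 CPM (2.496, SE 0.63, adjusted p = 0.0444). The stages did not overlap in these 3, and over all genes 10.6% were lower and 9.87% higher at P0 without overlap. Foxa2 (-0.88, adjusted p = 0.0961), Foxa1 (-0.61, adjusted p = 0.452), En1 (-0.29, adjusted p = 0.56), Nr4a2 (-0.22, adjusted p = 0.725) and Lmx1b (0.57, adjusted p = 0.786) did not pass, and Pitx3 and Lmx1a were too low to test.

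These stage calls were not firm. With the stage taken from the second plate label, none of the 3 passed and their log2 fold changes were 0.37 for Ebf1, 0.032 for Ebf3 and -2.88 for Ebf2. Leaving out P0 replicate 3 left 0 of the 3 (adjusted p = 0.0599 for Ebf1, 0.0844 for Ebf3 and 0.205 for Ebf2), and leaving out E16 replicate 4 or P0 replicate 2 left 1, Ebf1. Ebf2 was also lost without E16 replicate 1 or 3 or P0 replicate 1 and with DESeq2 (0.159). Single P0 plates also stood apart in their makeup, P0 replicate 3 in Pax7 and P0 replicate 2 in the astrocyte and radial glia markers given above, whose part was not tested. Wells with Pax7 were 0.656% to 7.02% of the E16 plates and 6.82%, 6.85% and 21.1% of the P0 plates, and over wells without Pax7 the Ebf2 value was 1.36 (adjusted p = 0.248). Over wells without Otx2 the values were -0.25 for Ebf1 (adjusted p = 0.792), -0.53 for Ebf3 (0.478) and 2.32 for Ebf2 (0.0718), and none passed. The Ebf1 values of the wells with Otx2 are given above by stage, and their stage difference was not tested.

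On the VGAT+PITX3 plates, with 1 plate per stage, the P0 level was 0.529 times the E16 level for Pitx3, 0.639 to 0.659 times for Lmx1a, Foxa1 and Nr4a2, and 0.808 to 0.928 times for the other 6, with no test. All 10 were thus lower at P0 on these plates, as were 49.2% of all genes. Whether the stage difference differed between sorts was tested as an interaction, where the spread comes from the VGAT plates alone and 1 VGAT+PITX3 plate per stage is assumed to vary like them. None of the 8 factors other than Pitx3 and Lmx1a, and none of 15724 genes (0%), was called with edgeR, while 998 genes (6.35%) and 2 factors had an unadjusted p under 0.05. These were Ebf2 (-2.62, edgeR adjusted p = 0.773) and Ebf3 (0.78, adjusted p = 0.778).

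Intron reads gave a second readout. Unspliced counts were 57.5% to 76.2% of the Ebf1 counts over the 9 plates and 24.5% to 38.1% of those of Ebf3. For Ebf2 they were 53.9% to 71.6% on the 7 plates with 32 or more counts. The share over all genes was 20.1% to 30.0%. En1 (0% to 1.77%), Foxa1 (0% to 0.152%) and Foxa2 (0% to 0.395%) had almost none, and Nr4a2 had 1.63% to 10.6%. On the VGAT+PITX3 plates Lmx1a had 49.3% and 46.8%, Lmx1b 33.1% and 35.7%, and Pitx3 13.8% and 16.1%. The shares thus differed widely between the genes. The genes span 4093 bases (Foxa2) to 390775 bases (Ebf1), and the 3 with the shortest spans, Foxa2, En1 and Foxa1, had the lowest shares.

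Other genes of the pathway were taken from lists. Of 11 genes reported to depend on Nr4a2 or Pitx3, Slc6a3 and Aldh1a1 passed the filter on low counts only through the VGAT+PITX3 plates and had to differ. The other 9 were higher in the VGAT+PITX3 sort, where 4.73% of all genes were higher and 4.20% lower, from Th, the rate-limiting enzyme of dopamine synthesis (log2 fold change 7.78, SE 0.38), down to Drd2, the dopamine autoreceptor (2.08, SE 0.17), and Ptpru, a receptor phosphatase (1.77, SE 0.23). In the wells with 3 or more Slc6a3 counts, where 4.93% of all genes were higher and 6.28% lower, 9 of 10 were higher, led by Drd2 (4.58) and Aldh1a1 (4.57), and Ret, the GDNF receptor kinase, did not pass (0.29, edgeR adjusted p = 0.158). Of 10 genes of dopamine neuron subtypes, most of them transcription factors, and against the same shares of all genes, 5 were higher in the VGAT+PITX3 sort, with Bnc2 at 4.06 (SE 0.61) and Sox6 at 3.75 (SE 0.61), and 4 lower, with Otx2 at -2.01 (SE 0.19) and Satb1 at -1.12 (SE 0.22). In the Slc6a3 division 6 were higher, with Sox6 at 4.32 (SE 0.19) and Calb1, a calcium-binding protein, at 1.83 (SE 0.19), and 3 lower, with Zfp804a at -3.08 (SE 0.18) and Nfia at -2.40 (SE 0.27).

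Of 8 GABA selector genes, 6 were too low to test within the VGAT+PITX3 plates. Among these, Sox14 had 51.7 to 105 CPM on the VGAT plates and was at 0 CPM on both VGAT+PITX3 plates. The other 2 were lower in the VGAT+PITX3 sort, where 4.73% of all genes were higher and 4.20% lower. They were Zfpm2 with a log2 fold change of -5.18 (SE 0.31) and Zfpm1 with -1.79 (SE 0.33). Of 10 floor plate and progenitor genes 5 could be tested, against the same shares of all genes. Wnt5a, a secreted signal (5.28, SE 0.17), and Shh, the floor plate morphogen (2.95, SE 0.28), were higher and Sox2, a factor of neural progenitors, was lower (-2.93, SE 0.30). Among 7 paralogs of the factors 5 were tested, again against these shares. En2, the partner of En1, was higher (3.37, SE 0.36) and Ebf4 lower (-1.15, SE 0.17), while Nr4a3 (0.92, edgeR adjusted p = 0.263) did not pass. In the Slc6a3 division 4.93% of all genes were higher and 6.28% lower. Ebf4 was higher there (1.15, SE 0.36, adjusted p = 0.0317), unlike Ebf1, Ebf2 and Ebf3, and En2 was lower (-0.41, SE 0.13, adjusted p = 0.0413), unlike En1. Wnt5a was lower there (-0.72, SE 0.14, adjusted p = 0.000239), alone among 4 floor plate and progenitor genes tested, and neither of the 2 GABA selector genes tested, Zfpm1 and Zfpm2, passed.

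For the 7 factors with at least 3 counts on every VGAT plate, the genes whose level followed theirs best over these 7 plates were taken from 13639 genes by the correlation of log2(CPM + 1). They were Sox2ot (r = 0.974) for Nr4a2, Sec22c (0.976) for En1, Ncam2 (0.980) for Foxa1, Gm19938 (0.986) for Foxa2, Rabgap1 (0.996) for Ebf1, Ndrg3 (0.994) for Ebf2 and Sema5b (0.985) for Ebf3. With 7 plates that share stage, depth and cell makeup, such values describe the plates, and a search over this many genes brings up high ones.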

How the data were processed

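SORT-seq libraries of 9 plates were analysed. The authors demultiplexed the reads by well, trimmed them, aligned them with STAR to mm10 (GRCm38) and counted molecular barcodes per gene and well, correcting for molecules that share a barcode. The deposited values are therefore expected counts that need not be whole (51.7% of the total counts above 0 were not), as totals, spliced counts and unspliced counts. The barcode length (4 or 6 bases) differs between the sources, and the strand of the counting is not stated.

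A well was kept if it had 2000 or more genes, no more than 50000 counts and a mitochondrial share under 15%. Left out were 1378 wells for genes, 37 for counts and 5 for mitochondrial counts. Spike-in and mitochondrial rows were then dropped. Counts were summed per plate or class of wells, rounded and passed to the quasi-likelihood test of edgeR (version 4.0.16, run in R 4.3.3; genes kept by filterByExpr, TMM factors, Benjamini-Hochberg adjustment over all genes tested, threshold 0.05). CPM use the effective library size, except for summed marker lists, by number of Slc6a3 counts and where wells under 500 genes are concerned, where the plain total was used. Class genes were counted in a well from 1 count, and a plate entered a class fit with at least 5 wells on each side. For shares, wells were thinned once to 4000 counts, which left out 79 wells. Plates held 1435919 to 5408710 counts. Poisson and Clopper-Pearson intervals are at 95% and cover counting error only. The scripts were tested on simulated data. The alternatives were DESeq2 1.42.0, RLE factors, no filter, spliced counts, a minimum of 1000 genes, leaving out deep wells or wells with dopamine neuron genes, other limits on Slc6a3 and class genes, no plate block, a replicate block and leaving out each plate. Taking the stage from the second plate label and leaving out wells with Pax7 or Otx2 were chosen after seeing the data.

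The 10 factors and all gene lists were chosen with earlier results of these data known. Of each list the genes with the largest and smallest fold changes are named, unless they could be tested only through the group where they were high, and for likeness the genes with the highest correlation over the VGAT plates. The authors' gene annotation tables were not used. Some results of the gene lists are not reported here.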

Additional observations from a re-analysis of the deposited data

Results flagged for a closer look

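En1 on VGAT E16 replicate 1 stood apart from the other E16 VGAT plates. It was at 27.8 CPM there and at 67.9 to 75.7 CPM on the others. Lmx1a was highest on the same plate, at 3.45 CPM against 0.380 to 0.793 CPM, and 11 of its 14 counts came from 1 well. These were 2 of 21 values looked at in this way, and chance sets apart about 1 in 20.

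Wells with fewer than 500 genes were not used in any comparison. Summed, they held the 10 factors at 5015 CPM on the E16 VGAT+PITX3 plate (67 of 13360 counts in 49 wells) and at 4706 CPM on the P0 plate (49 of 10411 counts in 60 wells). On the VGAT plates such wells held them at 341 to 850 CPM.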

How the results depend on the processing

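Of the 8 factors tested between the sorts, 8 were called, and 7, all but Ebf1, with spliced counts, with the second plate label and without the P0 VGAT+PITX3 plate. Between the stages 3 were called, against 0 with the second plate label (where the log2 fold changes were 0.37 for Ebf1, -2.88 for Ebf2 and 0.032 for Ebf3), 0 over wells with no Otx2 count and 0 to 4 when 1 plate was left out. The interaction gave 0 factors, and 1 with no filter on low counts (Ebf2, -2.63). The Slc6a3 division gave 6, against 3 with DESeq2 and 2 without the plate block, and without either plate no residual degree of freedom remained. The marker genes gave 20 pairs, against 40 with no filter on low counts, 11 without the plate block and 16 to 24 when 1 plate was left out, and a marker count of at least 2 gave 30. The cause of these shifts was not tested. Over all genes, the stage calls numbered 624, and 944 with DESeq2, 1588 with no filter, 226 with the replicate block, 1 with the second plate label and 76 to 265 without E16 replicate 1, 3 or 4 or P0 replicate 2 or 3. The Slc6a3 calls numbered 1317, and 433 with DESeq2, 393 without the plate block and 663 after thinning. The sort calls numbered 1306, and 625 and 866 without the E16 and P0 VGAT+PITX3 plate. The interaction calls numbered 0, and 3 with DESeq2 and 66 with no filter. Of 1442 fold changes under alternatives, 1248 kept direction and call.

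Replicate numbers were not used to pair plates in the comparisons above. The correlations between same-numbered VGAT plates were 0.0378, 0.0636 and 0.0445, and those between differently numbered ones were -0.0738 to 0.0505. With the replicate block the 8 factors tested were called between the sorts, 2 between the stages (Ebf2 2.12, adjusted p = 0.107) and 0 for the interaction. Levels under 3 counts, 0.561 to 2.02 CPM, are too low to compare between plates at this depth, which bears on Pitx3, Lmx1a and Lmx1b on the VGAT plates.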
